A study of Mus musculus with 16 samples.

Results

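Acyp2, Cnrip1 and 4 genes set beside them were followed through 12 clones of F1 hybrid mouse cells, whose mother's genome is 129/Sv and whose father's is Cast. The 6 genes were taken by name from the 50600 genes counted: Acyp2, its paralog Acyp1, its chromosome 11 neighbours Eml6, Sptbn1 and Psme4, and Cnrip1, which lies 13.4 Mb from Acyp2. Another 13 neighbours were used for comparison. The RNA-seq data comprised 16 libraries. The 5 astrocyte clones (129, C2 and G4, female, and mC3 and mE6, male) and 3 neural progenitor cell (NPC) clones (F5, female, and mG2 and mG6, male) had 1 poly(A) library each. The male NPC clones Ch3, Ch5, Ch7 and Ch8 had 2 ribosomal RNA-depleted libraries each. Clones were isolated as colonies picked by hand from diluted NPCs, and all female clones came from the ES cell line F1-21.6 and all male clones from F1-23, so that sex and ES cell line cannot be told apart. Astrocytes were NPC clones kept for 48 h in FGF2 at 1 ng/mL and BMP4 at 10 ng/mL, a medium in which progenitors stop dividing. NPCs were grown in EGF and FGF2, each at 10 ng/mL, with no BMP4. In comparisons of astrocytes with NPCs, the parts of BMP4, EGF and FGF2 therefore cannot be told apart. Clone names and the strain 129 are distinct: the female astrocyte clone 129 is written "clone 129".

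Random monoallelic expression is the transcription of an autosomal gene from only one of its alleles, with a choice that is passed on in a clone and that differs from clone to clone. Acyp2 and Acyp1 encode acylphosphatases, small enzymes that hydrolyse the carboxyl-phosphate bond of acylphosphates. Cnrip1 encodes a protein that binds the tail of the cannabinoid receptor Cnr1. Sptbn1 encodes a beta-spectrin of the membrane skeleton, Eml6 a member of the EML family of microtubule-associated proteins, and Psme4 a nuclear activator of the proteasome.

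On GRCm38.p6, Acyp2 spans chr11:30505992-30649608, Sptbn1 chr11:30099395-30268384, Eml6 chr11:29743044-30026045 and Psme4 chr11:30771775-30881150. Psme4 is 122 kb, Sptbn1 238 kb and Eml6 480 kb from Acyp2. Cnrip1 spans chr11:17051859-17079372 and Acyp1 chr12:85272398-85288438. The sequences just upstream of the 2 genes with clone-dependent alleles are given because these genes were on in some clones and off in others, and from either allele. They are RefSeq sequences, 5′ to 3′ on the gene's own strand, with CG dinucleotides in capitals. The Acyp2 stretch is chr11:30649609-30649646 (minus strand), and the Cnrip1 stretch chr11:17051609-17051858 (plus strand).
Acyp2: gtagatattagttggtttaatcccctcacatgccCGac
Cnrip1: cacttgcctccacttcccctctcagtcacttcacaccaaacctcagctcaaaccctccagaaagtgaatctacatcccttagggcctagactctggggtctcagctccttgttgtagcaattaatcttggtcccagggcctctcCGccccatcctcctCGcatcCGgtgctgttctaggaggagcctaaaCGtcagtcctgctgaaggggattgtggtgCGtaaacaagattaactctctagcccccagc
In the 300-base window around its start, Acyp2 had 21 CG dinucleotides, a number that 24.8% of the 32851 windows of all genes reached. Cnrip1 had 8, which 48.6% of windows reached, and its neighbour Plek had 4, which 68.6% reached. The median window had 7. Eml6 had 20 and Psme4 25. The printed Acyp2 stretch covers only 38 of the 300 bases of its window and holds 1 of the 21 CG dinucleotides. The Cnrip1 stretch covers 250 bases and holds 5 of the 8. The rest of each window lies inside the gene, so that the CG content of the 2 printed stretches should not be compared. A CG match is a description of these windows, and DNA methylation was not analysed here.

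Levels are CPM, the counts of a gene scaled to a fixed total of reads on genes. The reads on genes numbered 78.3 to 94.0 M per astrocyte library, 69.9 to 106 M per poly(A) NPC library and 20.9 to 30.9 M per ribosomal RNA-depleted library (M, 1e6 reads). Of these, 26.8 to 32.5 M, 21.6 to 32.3 M and 4.19 to 5.97 M were allele-specific. In these bulk samples, fewer cells of a type and less RNA per cell cannot be told apart. Among markers, Gfap had 61.9 to 2090 CPM in astrocytes against 0.68 to 2.25 in poly(A) NPCs. The proliferation genes Mki67 and Top2a summed to 3.66 to 12.8 CPM in astrocytes, 864 to 1050 in poly(A) NPCs and 594 to 853 in Ch NPCs. The sums of the 3 oligodendrocyte markers were at most 13.2 CPM, with Mog at no more than 0.0283.

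Acyp2 was silent, monoallelic or biallelic depending on the clone. Allelic expression ratios are the Cast share of allele-specific reads, given for clones with at least 20 such reads. Ratios under 15% or over 85% were called monoallelic and those of 35 to 65% biallelic, and a clone with fewer than 20 such reads and under 1 CPM was called silent. By these limits Acyp2 was monoallelic in 5 clones, biallelic in 3 and silent in 4.

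In astrocytes, Acyp2 had 0 CPM in clone 129, 0 in C2, 0.0125 in G4 (1 read), 6.25 in mC3 and 23.45 in mE6. In poly(A) NPCs it had 0 CPM in F5, 3.29 in mG2 and 4.67 in mG6, and in Ch NPCs 6.24 in Ch3, 4.26 in Ch5, 10.45 in Ch7 and 10.12 in Ch8. The 4 silent clones were the 4 female clones, and all 8 male clones had Acyp2 reads. The exact 95% Poisson interval of the silent clones reached at most 0.0694 CPM, which bounds counting error only. In the order of levels, Ch7 and Ch8, mC3 and Ch3, mG6 and Ch5, and Ch5 and mG2 had overlapping intervals. The level of clones of different library preparation is set side by side only.

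The monoallelic clones used opposite alleles. The Cast share was 100% in mE6 (95% Wilson interval 99.75 to 100, 1561 allele-specific reads) and 3.82% in mC3 (2.199 to 6.56, 314 reads). It was 0% in Ch5 (0 to 3.66), mG2 (0 to 2.81) and mG6 (0 to 1.65). Of the biallelic clones, Ch3 had 54.25% (46.35 to 61.94), Ch7 56.3% (50.4 to 62.0) and Ch8 57.0% (50.1 to 63.7). The 12 Cast reads in mC3 were a larger share than the 0.0959% of X-chromosome reads assigned to Cast in this male clone, where the X is from 129. Their part in the result was not tested.

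**Figure D1:**
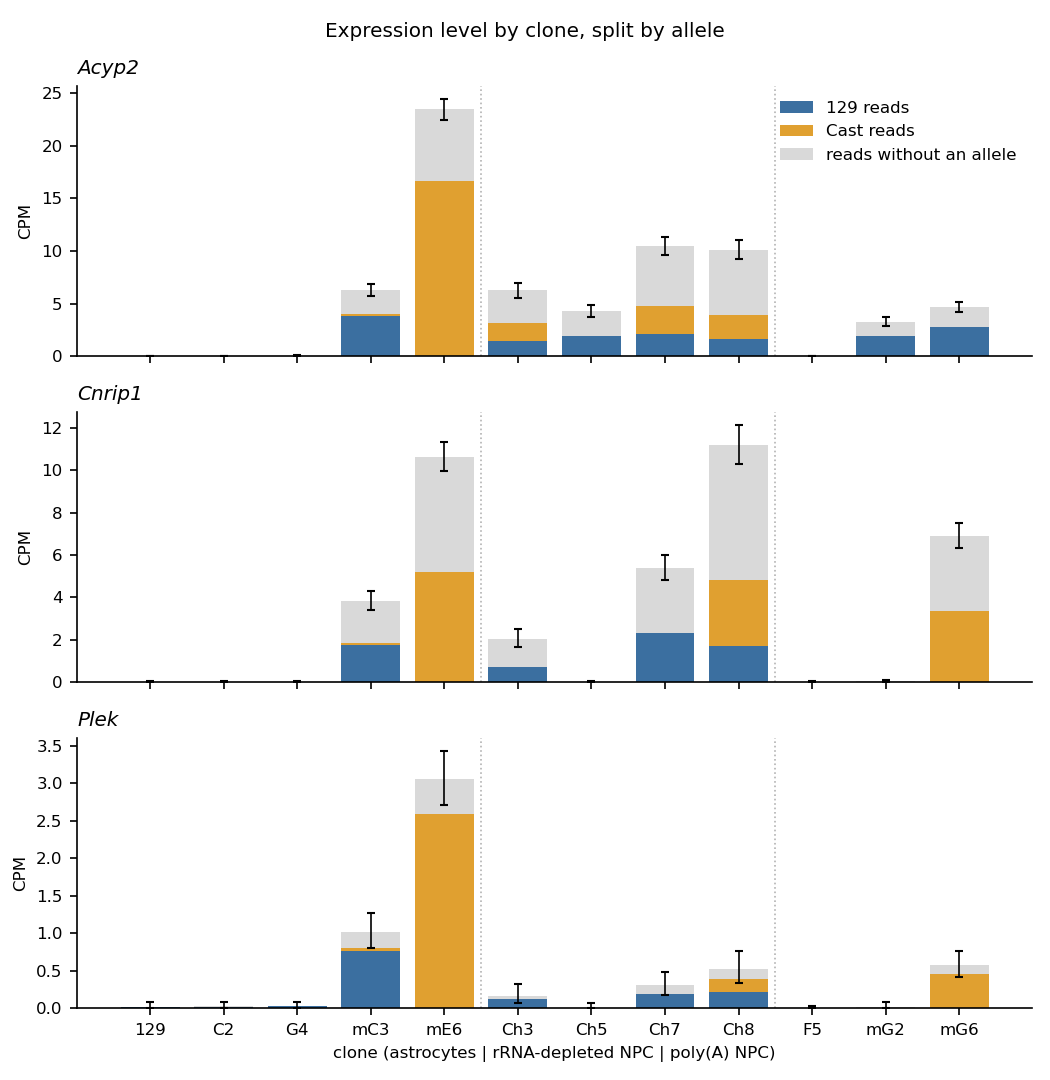
Level of Acyp2, Cnrip1 and the Cnrip1 neighbour Plek by clone: stacked bars are CPM of reads assigned to 129 (blue), to Cast (orange) and to neither (grey), and whiskers are the exact 95% Poisson interval of all reads. The female clones 129, C2, G4 and F5 are at or near 0, mE6 carries Cast reads of Acyp2, and Ch3, Ch7 and Ch8 carry reads of both alleles.

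Level and allele use were set side by side in the Ch clones, which share a preparation. Among the Ch clones, 129 reads of Acyp2 were 1.42 CPM in Ch3, 1.91 in Ch5, 2.08 in Ch7 and 1.66 in Ch8, while Cast reads were 1.69, 0, 2.68 and 2.201 CPM. Total Acyp2 expression differed among the 4 clones (edgeR quasi-likelihood F test with Benjamini-Hochberg adjustment over all genes, adjusted p = 9.16e-04). It was higher in Ch7 than in Ch5 by a log2 fold change of 1.39 ± 0.17 (SE) and in Ch8 than in Ch5 by 1.31 ± 0.17, in contrasts that called 5.84% and 4.53% of all genes. Ch5 against Ch3 was at −0.64 ± 0.18 on the log2 scale, short of the threshold (adjusted p = 0.0618), in a contrast where 6.76% of genes were called. Ch7 and Ch8 were also higher than Ch3, by 0.75 ± 0.17 and 0.68 ± 0.17, and all 3 were biallelic. The 129 reads alone gave no call (adjusted p = 0.685, edgeR), while the Cast reads were called (adjusted p = 1.88e-08). The log2 differences of the 129 reads ran from −0.35 ± 0.35 (SE) for Ch8 against Ch7 to 0.58 ± 0.36 for Ch7 against Ch3, so that a difference of this size was not detectable at this depth. In the same order, 16.6%, 16.7% and 15.3% of all genes tested were called in the totals, the 129 reads and the Cast reads. These p-values rest on 2 libraries per clone and measure the spread within a clone only. The study's methods speak of biological replicates without saying whether the 2 libraries came from separate cultures.

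The allelic ratio of Acyp2 also differed among the Ch clones (adjusted p = 1.97e-22, edgeR). Of all genes tested, 9.26% were called, and 6.14% of those outside chromosome 12. The libraries of a clone were not equally close. Ch5 had 0% in both libraries and Ch7 54.3% and 58.9%. Ch3 had 72.9% (59.0 to 83.4) and 45.7% (36.5 to 55.2), and Ch8 66.7% and 49.6%, so that for these clones the summed ratio is less certain than its interval. Over the 8 clones with a value, the SD of the Acyp2 ratio was 38.12 percentage points, against a median of 4.99 over autosomal genes with values in as many clones. Of these 10813 genes, 10 or 0.0925% varied at least as much.

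Cnrip1 showed the same range of states, in clones that overlapped in part with those of Acyp2. It had 0 CPM in clone 129, C2 and G4, 3.82 in mC3 and 10.63 in mE6. In NPCs it had 0 in F5, 0.0429 in mG2 (3 reads), 6.90 in mG6, 2.05 in Ch3, 0 in Ch5, 5.39 in Ch7 and 11.18 in Ch8. The silent clones were the 4 female clones and, beside them, the male clones mG2 and Ch5. Where both genes were expressed, they did not always use the same allele.

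The Cast share of Cnrip1 was 5.48% in mC3 (2.80 to 10.44), 99.8% in mE6, 0% in Ch3 (0 to 9.64, 36 reads) and 0% in Ch7 (0 to 2.75). It was 100% in mG6 (98.62 to 100) and 64.4% in Ch8 (58.29 to 70.08). Thus mG6 was monoallelic for Cast at Cnrip1 and for 129 at Acyp2, Ch3 and Ch7 were monoallelic for 129 at Cnrip1 and biallelic at Acyp2, and Ch5 and mG2 expressed Acyp2 from 129 with Cnrip1 silent. In mC3 and mE6 both genes used the same allele, 129 and Cast respectively. The SD over 6 clones was 49.02 percentage points, which 2 of 11333 autosomal genes reached (0.0176%).

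Cnrip1 also differed in level among the Ch clones (adjusted p = 1.97e-06, edgeR). Against Ch5, with no reads in 2 libraries and a floor of 3 counts over them, Cnrip1 was at least 36.2-fold higher in Ch3, 95.2-fold in Ch7 and 197-fold in Ch8. The Ch8 level exceeded that of Ch7 by a log2 fold change of 1.02 ± 0.17 (SE) and Ch7 exceeded Ch3 by 1.40 ± 0.19. These contrasts called 4.4% and 12.2% of all genes, and that of Ch8 with Ch3, 2.42 ± 0.19 for Cnrip1, called 13.7%. The 129 reads of Cnrip1 were 0.731 CPM in Ch3, 2.33 in Ch7 and 1.72 in Ch8, and Ch8 alone had Cast reads, 3.11 CPM. The 129 reads differed among the clones (adjusted p = 2.40e-08, edgeR). They were higher than in Ch3 by 1.63 ± 0.35 (SE, log2, adjusted p = 0.00131) in Ch7 and by 1.16 ± 0.36 (adjusted p = 0.0323) in Ch8, and Ch8 against Ch7, at −0.47 ± 0.30, was not called.

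Plek, which encodes the protein kinase C substrate pleckstrin, lies 43.1 kb from Cnrip1 and was highest in clones that expressed Cnrip1. It had 1.02 CPM in mC3, 3.05 in mE6, 0.575 in mG6 and 0.521 in Ch8, and from 0 to 0.309 CPM in the other clones. The Cast share of Plek was 4.76% in mC3, 100% in mE6, 100% in mG6 and 45.0% in Ch8 (20 reads). In Ch3 and Ch7, under the minimum, all 6 and all 11 allele-specific reads were from 129. Plek was called among the Ch clones in total expression (adjusted p = 0.0116, edgeR), but not without the first Ch5 library (adjusted p = 0.0580). The other genes around Cnrip1 had both alleles in nearly every clone: Ppp3r1, Wdr92, C1d, Egfr and Sec61g were biallelic in 12 of 12 clones, Pno1 in 11 and Fbxo48 in 10.

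**Figure D2:**
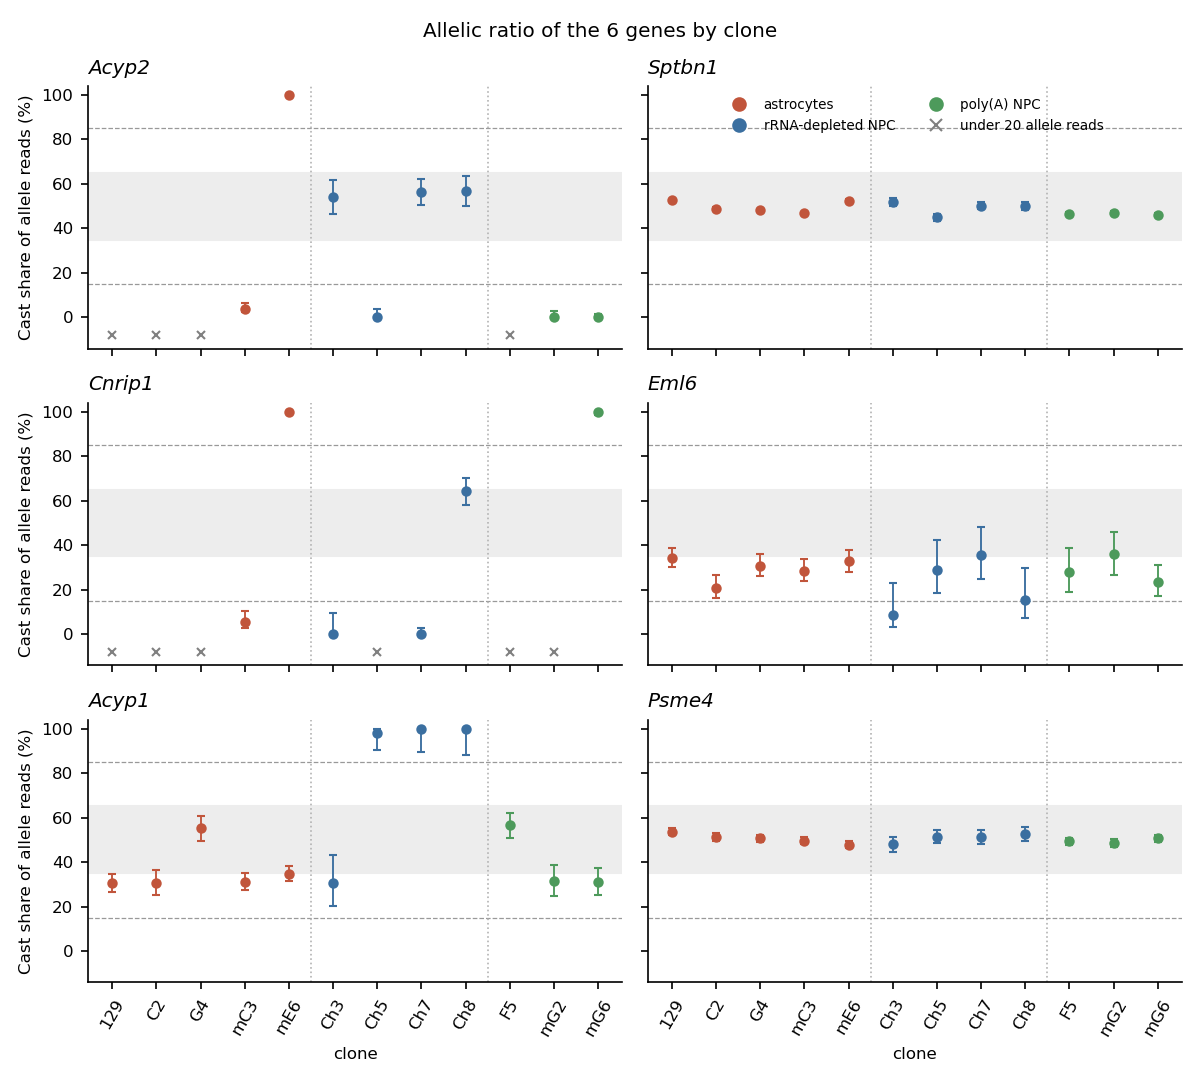
Cast share of allele-specific reads in percent for the 6 genes in the 12 clones, with 95% Wilson intervals; dashed lines mark 15% and 85%, the grey band 35 to 65%, and crosses mark clones with fewer than 20 such reads. Acyp2 and Cnrip1 reach both edges, Sptbn1 and Psme4 stay between 44.9% and 53.6%, and Acyp1 reaches 98.2 to 100% in Ch5, Ch7 and Ch8.

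Levels of Acyp2 were compared between the sexes in the 8 poly(A) libraries, with cell type in the model, after the silent clones had been seen. Acyp2 was called (edgeR, adjusted p = 0.00672), one of 18 genes or 0.0947% of 19000 tested. Because the split was already seen in these same values, this p-value restates the silent clones and is no separate evidence. Cnrip1 (adjusted p = 0.334) and Plek (adjusted p = 0.182) were not called. The call for Acyp2 was lost without G4 (adjusted p = 0.121) and without F5 (adjusted p = 0.0658). Of the 18 genes, 3 were on the sex chromosomes and 14 on autosomes.

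The genes whose log-scale level over the 12 clones was most like that of Acyp2 were Sat2 (Pearson r = 0.976) and Taf9b (r = 0.968), of 14129 genes. Before r was computed, each level was centred on its mean within astrocytes, poly(A) NPCs and Ch NPCs. Sat2 encodes a spermidine acetyltransferase family protein on chromosome 11, and Taf9b, on the X chromosome, a subunit of the general transcription machinery. Sat2 had 0 CPM in clone 129 and C2, 0.0623 in G4 and 0.00944 in F5, but 9.56 in mC3, 17.3 in mE6, 2.59 to 2.99 in the Ch clones and 3.33 and 4.06 in mG2 and mG6. Taf9b had 0 CPM in clone 129, C2 and F5, 0.0872 in G4 and 8.98 to 37.9 in the male clones. The centring takes out the mean difference of preparation. The 4 female clones are at or near 0 CPM for all 3 genes, so that r describes these clones only. For Cnrip1 the closest were Cnbd2 (r = 0.844), Vamp1 (r = 0.840) and Fzd9 (r = 0.837). Acyp2 and Cnrip1 had r = 0.822 with each other, and the 4 female clones are at or near 0 CPM for both. Plek had r = 0.916 with Cnrip1 and 0.928 with Acyp2, but lies below the mean level of 1 CPM that the ranking required.

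Acyp1, the paralog, was expressed in all 12 clones and its ratio moved with that of its chromosome region. It had 23.2, 15.4, 19.3, 26.1 and 33.6 CPM in the astrocytes (clone 129, C2, G4, mC3, mE6), 19.2, 11.1 and 12.8 in F5, mG2 and mG6, and 4.88, 4.34, 2.71 and 2.95 in Ch3, Ch5, Ch7 and Ch8. The Cast share was 30.4%, 30.5%, 55.2%, 31.1% and 34.7% in astrocytes, 56.5%, 31.4% and 30.8% in F5, mG2 and mG6, and 30.5%, 98.2%, 100% and 100% in Ch3, Ch5, Ch7 and Ch8. The 5 values above 35% belong to clones in which many genes of chromosome 12 were unbalanced.

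In Ch5, Ch7 and Ch8 only 0.207%, 0.217% and 0.224% of the allele-specific reads of chromosome 12 were assigned to 129, while the median log2 fold change in total expression of its 480 genes lay between −0.03 and 0.035 in the contrasts among the Ch clones. In G4 and F5 the median gene of the 20 Mb window around Acyp1 had a Cast share of 71.3% and 73.4%, and in the remaining clones this median was 48.2% to 52.6%. Acyp1 lay below its window in every clone but Ch7 and Ch8, where both were at 100%. The chromosome 11 medians stayed between 48.9% and 51.4% in the 12 clones. The SD of Acyp1 over clones, 29.8 percentage points, was reached by 0.313% of autosomal genes.

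**Figure D3:**
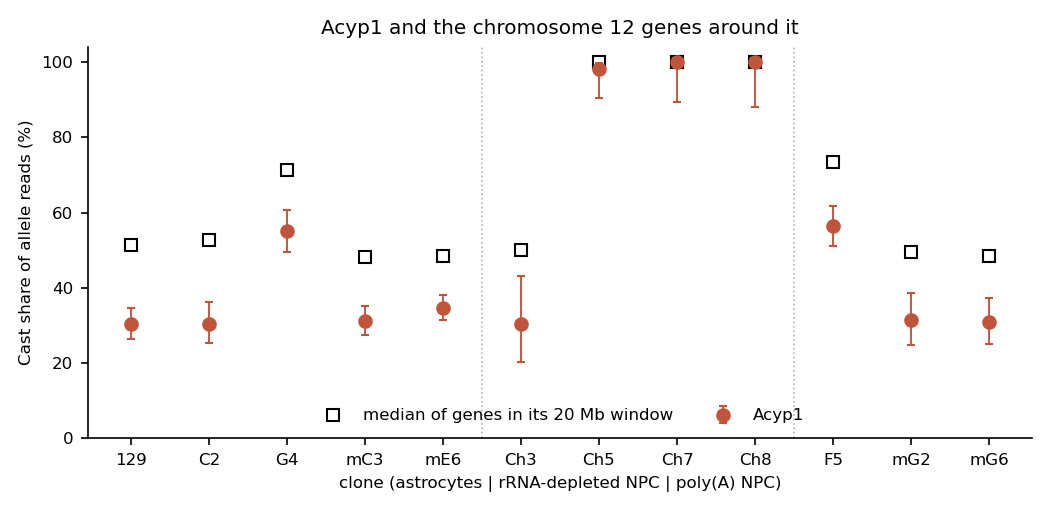
Cast share of Acyp1 (circles, with 95% Wilson intervals) and the median Cast share of the genes in its 20 Mb window on chromosome 12 (squares) by clone. Both are at or near 100% in Ch5, Ch7 and Ch8, and the window lies at 71.3% in G4 and 73.4% in F5.

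Eml6 had a Cast share under 50% in all 12 clones, and every 95% Wilson interval ended below 50%, at most at 48.34% in Ch7. The Cast share was 34.4%, 20.9%, 30.8%, 28.4% and 32.8% in astrocytes, 27.8%, 35.9% and 23.5% in F5, mG2 and mG6, and 8.82%, 28.8%, 35.6% and 15.4% in Ch3, Ch5, Ch7 and Ch8, on 34 to 59 reads in the latter. The Cast to 129 ratio fell below 1 in astrocytes by 1.27 on the log2 scale (SE 0.17, adjusted p = 0.00714, edgeR) and in NPCs by 1.60 (SE 0.31, adjusted p = 0.00633). Of all genes, 27.5% in astrocytes and 40.2% in NPCs were called in either direction, and 16.6% and 26.2% were lower on Cast. The end of Eml6 overlaps that of Rtn4 on the opposite strand, and the reads were counted with strand. In NPCs the call was lost with the poly(A) clones alone (adjusted p = 0.0627) and without Ch5, Ch7 and Ch8 (adjusted p = 0.0816). The ratio did not differ detectably between the cell types, 0.03 ± 0.26 (SE, log2, adjusted p = 0.980), in a comparison that called 0.478% of genes.

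Total expression was compared between the 5 astrocyte and 3 poly(A) NPC clones, which the labels give different names. The study's source data give the ratios of F5 under the name C2, so that it is not settled that no clone is in both groups. The median Cast share in the chromosome 12 window around Acyp1 was 73.4% in F5 and 52.6% in C2, and that of Acyp1 56.5% and 30.5%. Whether F5 and C2 are the same clone was not tested. All counts of clones and the comparison of the sexes take them as separate, as the labels do. Eml6 was the only one of the 6 genes called, beside 25.5% of all genes. It had 11.3 ± 2.26 CPM (SD, n = 5) in astrocytes and 3.88 ± 1.55 (SD, n = 3) in NPCs, a log2 fold change of 1.59 ± 0.34 (SE, adjusted p = 0.0128, edgeR). Without mG2 the log2 fold change was 1.58 and the call was lost (adjusted p = 0.0538). The 6 NPC markers summed to 390 to 1440 CPM in astrocytes and 3380 to 4960 in poly(A) NPCs, the 5 astrocyte markers to 1050 to 4170 and 881 to 1570, and the 4 neuron markers to 434 to 1270 and 989 to 1780. Nearly all of the neuron sums was Map2, at 430 to 1260 CPM in astrocytes and 976 to 1760 in poly(A) NPCs. Tubb3, Rbfox3 and Dcx each had at most 22.9 CPM in these clones. The part of the marker genes and of the proliferation genes in the result was not tested.

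**Figure D4:**
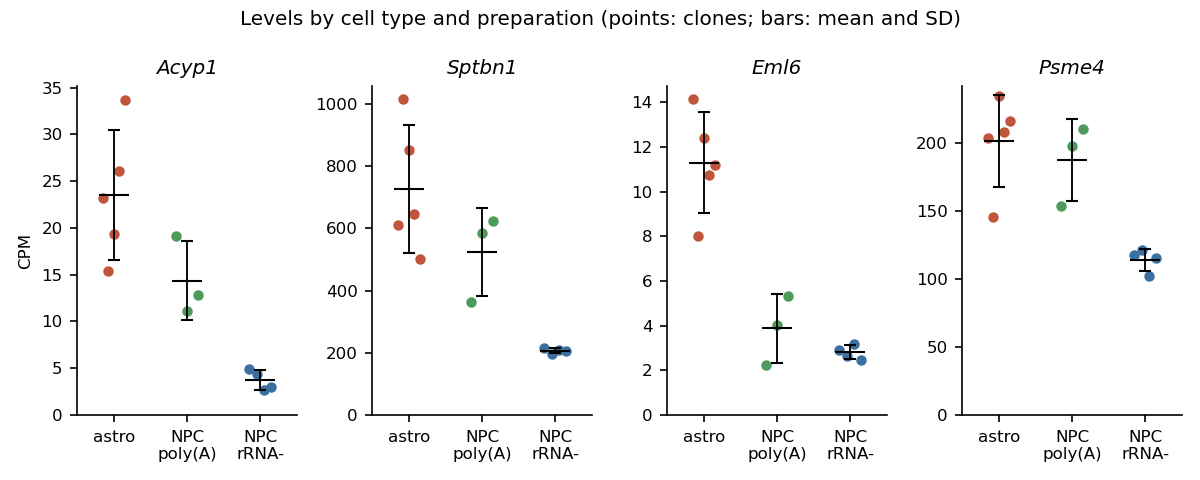
CPM of Acyp1, Sptbn1, Eml6 and Psme4 in astrocytes, poly(A) NPCs and ribosomal RNA-depleted NPCs, with points for clones and bars for mean and SD. For Eml6 the astrocyte clones run from 7.999 to 14.1 and the poly(A) NPCs from 2.25 to 5.33.

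The other genes were not called. The log2 fold change was 1.24 ± 2.53 (SE, adjusted p = 0.760, edgeR) for Acyp2 and 0.35 ± 2.57 (adjusted p = 0.938) for Cnrip1. With SEs this large, the comparison cannot decide whether Acyp2 or Cnrip1 differs in level between the cell types. Female clones, all silent for both genes, also made up a larger share of the astrocyte clones than of the poly(A) NPC clones. Acyp1 had 23.5 ± 6.94 CPM in astrocytes and 14.4 ± 4.24 in poly(A) NPCs (log2 0.76 ± 0.31, adjusted p = 0.101), Sptbn1 726 ± 206 and 525 ± 141 (0.53 ± 0.31, adjusted p = 0.239), and Psme4 202 ± 33.7 and 188 ± 29.95 (0.16 ± 0.20, adjusted p = 0.598). In Ch clones these 3 genes had 3.72 ± 1.05, 206 ± 7.90 and 114 ± 8.08 CPM, in another preparation.

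Sptbn1 and Psme4 were biallelic in all 12 clones. In NPCs, Sptbn1 was not called for Cast against 129 (adjusted p = 0.143, edgeR), but with the poly(A) clones alone it was, at −0.20 on the log2 scale (adjusted p = 0.0455). Sptbn1 ran from 44.9% in Ch5 to 52.6% in clone 129, and Psme4 from 47.8% in mE6 to 53.6% in clone 129. Their SDs, 2.59 and 1.76 percentage points, were reached by 75.6% and 90.8% of autosomal genes. Sptbn1 was nevertheless called among the Ch clones (adjusted p = 0.00297, edgeR), by a fall in Ch5 against Ch3 of 0.40 on the log2 scale (SE 0.10, adjusted p = 6.92e-04) where 7.06% of genes were called, and a rise of 0.31 ± 0.09 in Ch7 against Ch5 (adjusted p = 0.0489), where 1.8% were called. The call among the clones was lost without the second Ch5 library (adjusted p = 0.181). Psme4 was not called (adjusted p = 0.876).

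Of the wider set beside Acyp2, Rtn4, Asb3 and Erlec1 were biallelic in 12 of 12 clones, and Gpr75, an orphan receptor gene, was monoallelic in 1, biased in 3, biallelic in 1 and silent in 7. Clhc1 passed 20 reads in 2 clones only. Thus the extreme values at Acyp2 were not seen at Psme4 (122 kb) or Sptbn1 (238 kb). Eml6 (480 kb) was monoallelic in 1 clone, Ch3, with 8.82% on 34 reads, biased in 9 and biallelic in 2. Its Cast share was at most 35.87%. The Gpr75 ratio, 235 kb away, varied with an SD of 30.4 percentage points over 5 clones, which 1.16% of autosomal genes reached. Its monoallelic value was that of F5, 5.0% (0.888 to 23.61) on 20 reads, the minimum. The other ratios ran from 58.18% in mE6 to 81.01% in mC3. Gpr75 had 0.397 CPM in F5 and 0.438 (C2) to 0.789 CPM (Ch7) in the clones called silent, so that these states depend on the read minimum.

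**Figure D5:**
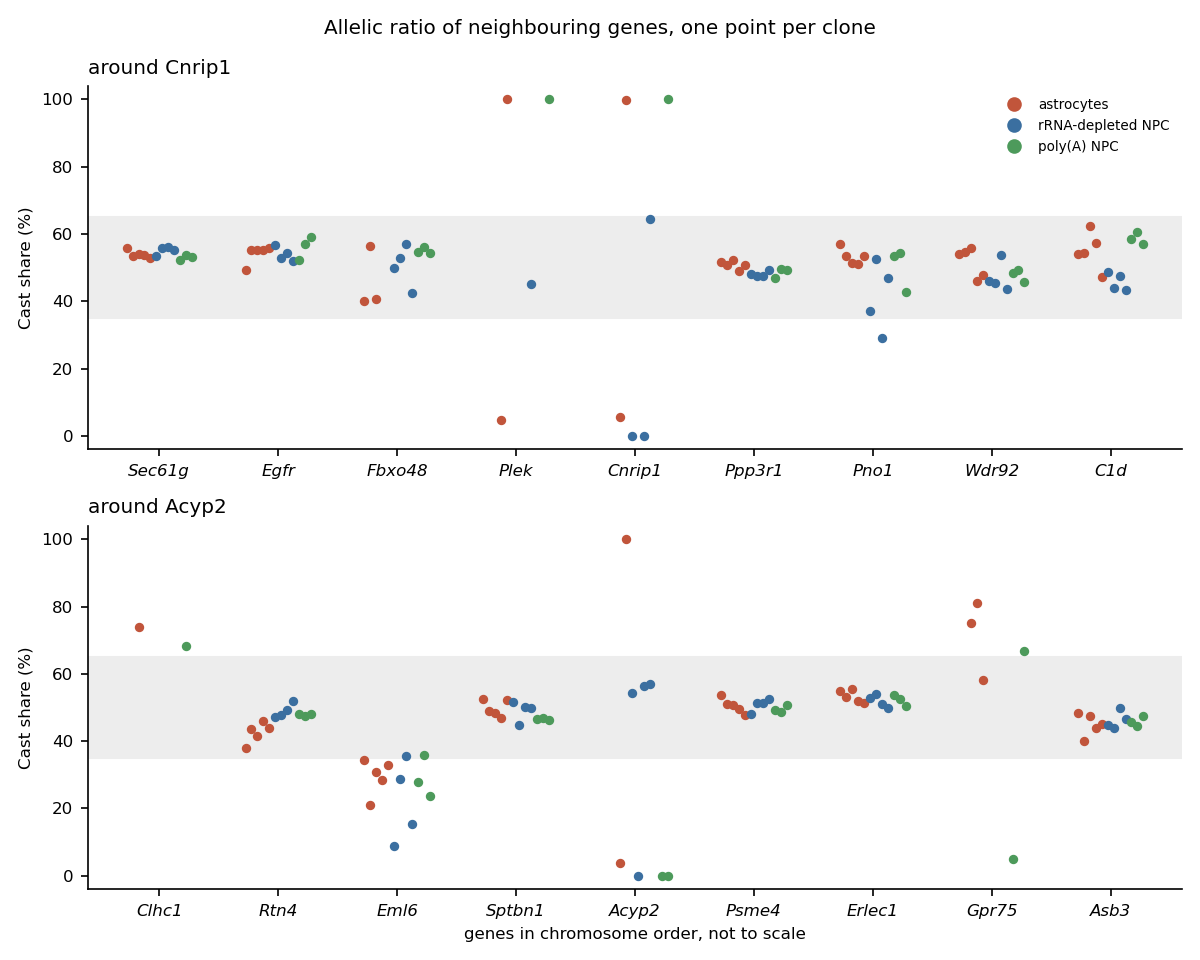
Cast share in percent of the genes around Cnrip1 (top) and Acyp2 (bottom) in their order along chromosome 11, with 1 point per clone that had at least 20 allele-specific reads and a grey band at 35 to 65%. Acyp2, Cnrip1 and Plek reach under 15% and over 85%, and Sptbn1, Psme4, Rtn4, Asb3 and Erlec1 stay in the biallelic range.

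The families of the 6 genes were counted in total expression, astrocytes against poly(A) NPCs, with lists that were chosen with earlier results known. Over all genes, 13.0% were called higher and 12.6% lower, and the median log2 fold change was 0.08. In the EML family 3 of 6 genes rose: Eml1, Eml3 and Eml6 by 2.07, 1.55 and 1.59, with a list median of 0.94. Of the spectrin skeleton genes, the adducin gene Add1 rose by 0.47 and the adducin gene Add2 fell by 2.36. In the endocannabinoid list 1 of 8 tested rose and 1 fell, with a median of 0.18: Dagla, which makes the cannabinoid 2-AG, rose by 2.21, and Daglb fell by 1.23. Psme3 was called among 5 proteasome activators and inhibitors (fell by 0.60, list median 0.16), and 0 of 14 core proteasome subunits were called (median −0.09), with 0 at an unadjusted p under 0.05 and 0 by DESeq2. Among the Ch clones, where 16.6% of all genes were called, edgeR called 2 of 8 endocannabinoid genes (Cnr1 and Faah), 4 of 12 spectrin skeleton genes, 2 of 6 EML genes, 1 of 14 core subunits and 0 of 5 proteasome activators and inhibitors, the last with 0 at an unadjusted p under 0.05 and 0 by DESeq2.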

How the data were processed

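RNA-seq was made by the authors from TruSeq stranded, paired-end libraries: reads were aligned to an N-masked genome (GRCm38) with TopHat2 2.1.0 and Bowtie2, assigned to alleles with SNPsplit and counted with strand by featureCounts 1.5.1. The annotation version is not given in the sources used here. The deposited counts per gene (129, Cast and all reads) were used without change, and the deposited allelic ratio, a fraction, was not used. Clone names follow the labels; the study's source data give several of these NPC clones' ratios under another clone name, those of F5 under that of an astrocyte clone.

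CPM used all reads on genes. The Cast share was computed from the counts at 20 or more allele-specific reads, with the 2 libraries of a Ch clone summed. Tests were edgeR 4.0.16 quasi-likelihood F tests in R 4.3.3, with TMM for totals and a library or clone block for alleles, adjusted by Benjamini-Hochberg over all genes at 0.05, with DESeq2 1.42.0 as an alternative. They were tested on simulated data, where the test of allelic ratios among the Ch clones missed the recovery first required of it, with unbiased effects. Recovery was then required of deeper genes only, so that genes with few allele-specific reads may be missed. Intervals are exact Poisson for CPM and Wilson for shares (95%) and cover counting error only. Positions and upstream sequences are from RefSeq, GRCm38.p6. Genes named were the 6 genes, their neighbours by position and at most 4 genes of each list. The genes and lists were chosen with earlier results of these data known. The comparison of sexes and the tests of 1 allele were added after seeing the data. The count and median of the spectrin skeleton list between cell types are not reported here.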

Additional observations from a re-analysis of the deposited data

Results flagged for a closer look

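Of 32 sets of 5 astrocyte values checked, 5 held 1 clone far from the other 4, where chance gives about 1 in 20. Acyp2 had 23.45 CPM in mE6, against 0 to 6.25 in the others. The Cast share of Acyp1 was 55.23% in G4, against 30.39% to 34.71%, and the window around it was at 71.3% in this clone. Clone 129 stood apart in 3 neighbours: Rtn4 had 629.7 CPM there against 343.7 to 415.2, Wdr92 14.44 CPM against 9.392 to 10.17, and Egfr a Cast share of 49.24% against 55.12% to 55.77%.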

How the results depend on the processing

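Of 613 alternative values, 550 kept their direction and their side of the threshold (counts within 1.5 times). Genes called between astrocytes and poly(A) NPCs (4644) ranged from 2269 to 4849 with 1 clone left out (2667 without F5, 3030 without mG6), and called genes among the 6 from 0 to 1. Without mE6 the log2 change of Acyp2 was −0.751, and that of Cnrip1 was −0.234 without F5 and −0.227 without mG2; none was called. Among the Ch clones, 1509 to 3244 genes were called in totals with 1 library left out (2834 with all), and 4361 with no filter, where Acyp1 was called. The replicate block gave 3391 genes in totals (2834 without it) and 1017 in allelic ratios (1022 without it); deviations of same-numbered libraries correlated at −0.18 to 0.28, so the numbers are not taken as pairs. In astrocytes, genes called for Cast against 129 (3588) ranged from 1963 to 2980 with 1 clone left out, and called genes among the 6 from 1 to 2, since Acyp1 was called without G4 (log2 −1.109). Ratios near 0 on the log2 scale changed sign: Sptbn1 was 0.014 with TMM on allele columns and −0.056 to 0.028 with 1 clone left out, and Psme4 −0.012 to 0.071. In NPCs, 1653 genes were called with the poly(A) clones alone (of the 6 genes, Sptbn1), 2022 without Ch5, Ch7 and Ch8 (0 of the 6) and 1232 without these and F5 (Acyp1, adjusted p = 0.0375), against 4915 with all (Eml6). In these 3 settings the log2 ratio was −0.643, −0.775 and −1.157 for Acyp1 and −0.026, −0.048 and −0.05 for Psme4, which was −0.005 to 0.038 with 1 clone left out. The ratio between cell types gave 645 genes with all 7 NPC clones and 2 to 58 with 1 clone left out (59 with all); there Eml6 ran from −0.172 to 0.262 and Acyp1 from −0.468 to 0.309. Between the sexes (18 genes), 8 to 29 genes were called with 1 clone left out, 11 without mC3 and 11 without mG6, with 0 to 1 of the 6, and in the 129 reads of the Ch clones 1 to 2 of the 6. Acyp2 in Ch7 was 11.32 CPM on TMM library sizes (10.45 without). The cause of these changes was not tested. Depth limits the ratios of Eml6 and Acyp1 in the Ch clones, with 28 to 59 allele-specific reads.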

Other observations

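In mC3 the Cast shares of Acyp2 (3.82%), Cnrip1 (5.48%) and Plek (4.76%) lay close together, whereas 0.0959% of the X-chromosome reads of this clone were assigned to Cast. In mE6 the 3 genes had 100%, 99.8% and 100% Cast. The share of 129 reads on chromosome 12 in Ch5, Ch7 and Ch8, 0.207% to 0.224%, was of the size of the Cast share of X-chromosome reads in male clones, 0.092% to 0.288%.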
